A study of Mus musculus with 12 samples.

Results

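Osteoblasts, the cells that build bone, were compared between mice with and without breast cancer growing in the long bones. The comparison uses 6 of the 12 arrays of the study, 3 of osteoblasts from tumor-bearing mice and 3 of osteoblasts from tumor-free mice, and 12430 of the 19937 genes that have 1 gene symbol on the array. Genes were left out where they were dim, as described with the processing. The other 6 arrays hold endothelial cells, the lining of blood vessels, sorted from the bones of tumor-bearing and tumor-free mice, 3 of each. All mice were female NOD SCID, an immunodeficient strain that carries the Prkdc scid mutation and lacks mature B and T cells. Tumor-bearing mice were injected in the heart with 200000 cells of MDA-MB-231 scp1833, which then grew in the long bones for some 2 weeks. This human line is a bone-seeking derivative of MDA-MB-231, a breast cancer line. The sources used here do not give the age of the mice, or say whether tumor-free mice were injected with anything. Osteoblasts were sorted as cells negative for GFP, the marker labelled TR119, CD45, SCA1 and CD31 and positive for CD51, an integrin chain that other stromal cells can carry too. Bones were ground and the fragments digested with collagenase and dispase before the sort. Replicates are labelled as biological, but whether an array pools mice is not given, so the p-values below measure the spread between arrays. Unless stated, that spread is estimated over all 12 arrays, endothelial cells included.

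Osteoblasts arise from stromal progenitors, lay down type I collagen and then mineralize it. They also control bone resorption, since they make RANKL (gene Tnfsf11) and CSF1, which osteoclasts need, and osteoprotegerin (Tnfrsf11b), which captures RANKL. Breast cancer cells in bone are known to secrete factors that raise RANKL in osteoblast-lineage cells, and the resorbed matrix in turn releases growth factors. Chondrocytes of the growth plate, fibroblasts of tendon and reticular cells of the marrow share part of this program. They can lie close to osteoblasts when bone is ground and digested.

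The sorted cells carried osteoblast transcripts in both groups. The mean of 13 osteoblast markers was 9.72, 9.62 and 9.18 (log2 expression, replicates 1, 2 and 3) in osteoblasts of tumor-bearing mice and 8.75, 9.58 and 9.49 in those of tumor-free mice, against 6.12 to 6.45 on the endothelial arrays. Of the sort markers, Ptprc, which encodes CD45, stood at 7.03, 6.87 and 4.70 in tumor-bearing and 4.92, 8.46 and 6.41 in tumor-free replicates 1, 2 and 3. The highest Ptprc value was that of tumor-free replicate 2, and the groups overlapped. Pecam1 (CD31) lay between 5.03 and 6.39 on the osteoblast arrays, and the 16 endothelial markers had means of 5.41, 5.41 and 5.16 and 5.49, 6.03 and 5.65, against 9.61 to 9.95 on the endothelial arrays. Itgav (CD51) stood at 9.16, 9.07 and 8.5 and 7.91, 8.52 and 8.73. Array medians were 5.21 to 5.41, and the number of arrays, 3 a group, limits precision.

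The tumor-free osteoblast arrays differed more among themselves than any other group, and each in its own way. Over 3 replicates, the SD of a gene had a median of 0.328 in osteoblasts without and 0.219 with tumor, and 0.173 and 0.189 in endothelial cells without and with tumor. Over the genes tested, tumor-free osteoblast replicate 1 correlated at 0.723 and 0.778 with tumor-free replicates 3 and 2, and on average at 0.852 with the tumor-bearing osteoblast arrays. For markers of other cells, too, tumor-free replicate 1 differed from replicates 2 and 3, though not always toward the tumor-bearing arrays. The mean of 18 monocyte and macrophage markers was 5.23, 8.65 and 8.60 in tumor-free replicates 1, 2 and 3 and 7.23, 6.84 and 4.87 in tumor-bearing ones, with 8, 17 and 17 and 16, 15 and 6 of the 18 above the array median. Means of 15 neutrophil markers were 5.17, 7.01 and 6.78 and 6.24, 5.78 and 4.91, and those of 17 markers of reticular stroma 7.59, 8.44 and 8.79 and 9.69, 8.72 and 8.03. For 21 chondrocyte markers the means were 9.39, 8.15 and 6.37 in tumor-free and 9.41, 10.07 and 9.99 in tumor-bearing replicates, so that tumor-free replicate 1 lay beside the tumor-bearing arrays. Immediate early genes, which are induced within minutes of a stimulus or of cell handling, averaged 8.51, 7.84 and 7.37 and 8.82, 8.95 and 8.80 over 26 genes. In endothelial cells the same 26 genes averaged 8.82, 8.01 and 7.91 in tumor-free and 8.86, 8.88 and 8.87 in tumor-bearing mice, and there too tumor-free replicate 1 lay closest to the tumor-bearing arrays. In a sorted bulk sample, fewer cells of a type and less RNA per cell cannot be told apart. The part of these other cells and of the immediate early genes in the results below was not tested, and each gene past the threshold and each list median is therefore also given against tumor-free replicate 1 alone where that moves it by over 1.5 times, turns it or ends the call.

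**Figure D1:**
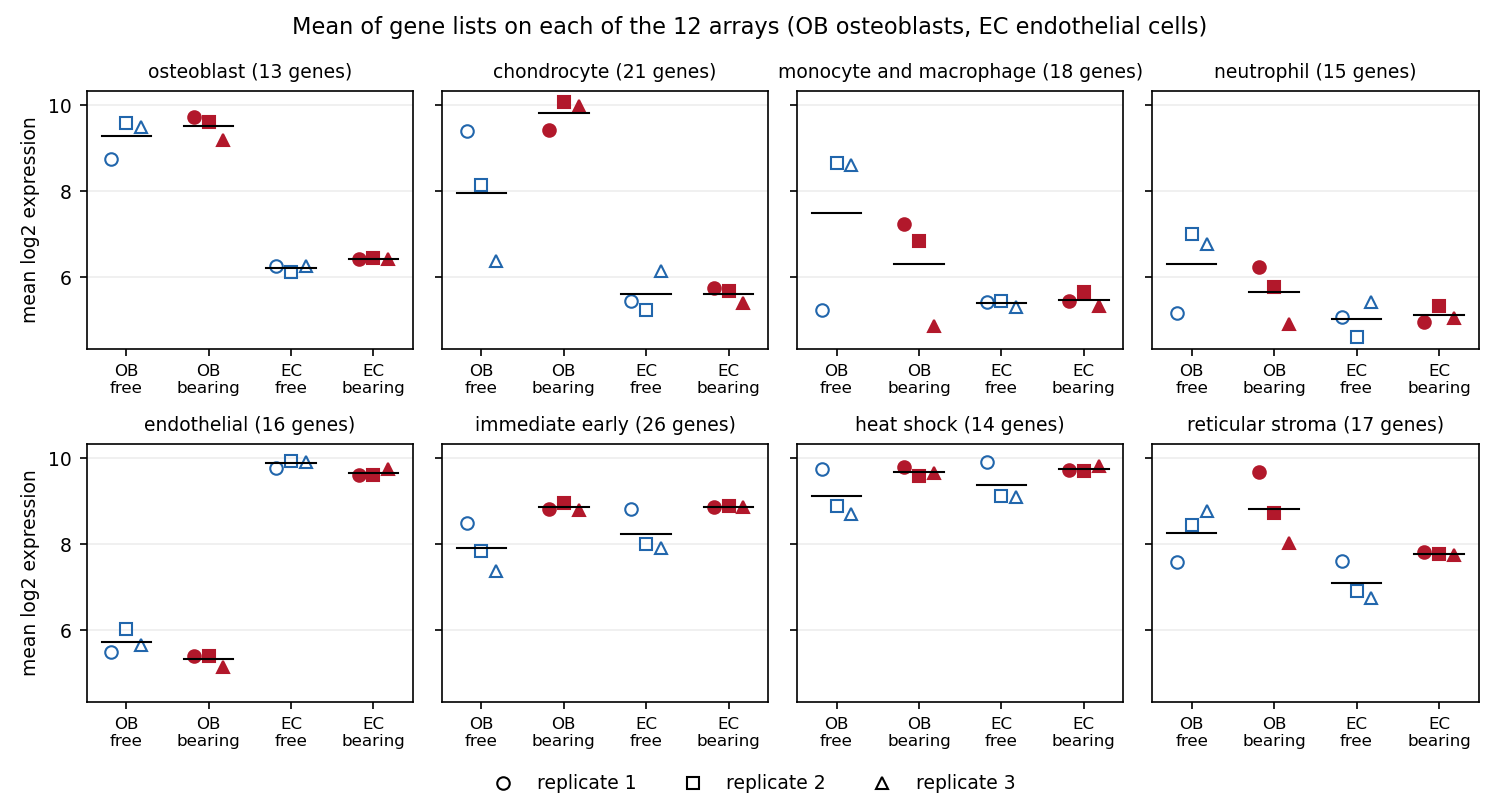
Mean log2 expression (vertical axis) of 8 gene lists on each of the 12 arrays, for osteoblasts (OB) and endothelial cells (EC) of tumor-free (blue, open) and tumor-bearing (red, filled) mice; symbols mark replicates 1 to 3 and black lines the mean of 3 arrays. Tumor-free osteoblast replicate 1 has a macrophage marker mean of 5.23 against 8.65 and 8.60 in replicates 2 and 3, and a chondrocyte marker mean of 9.39 against 8.15 and 6.37.

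In the test across all genes, 570 of 12430 genes differed between osteoblasts of tumor-bearing and tumor-free mice (4.59%; limma on all 12 arrays, Benjamini-Hochberg adjusted p under 0.05). Of these 499 were higher in tumor-bearing mice (4.01%) and 71 were lower (0.571%). The higher genes differed by a median of 1.27 on the log2 scale and the lower ones by -0.70, against -0.0014 for all genes tested. After quantile normalization, with a median difference of -0.06 over all genes, the split was 368 higher and 184 lower. The counts rest on a spread estimated over 4 groups. In limma on the 6 osteoblast arrays alone 0 genes passed (smallest adjusted p = 0.103), with 1820 at an unadjusted p under 0.05 (14.6%), against 3037 (24.4%) in the fit on 12 arrays. When each group had its own spread 130 genes passed (1.05%), all of them higher and all among the 570. Leaving out tumor-bearing osteoblast replicate 2 left 111 calls and leaving out tumor-free osteoblast replicate 1 gave 1573. Other counts that moved by over 1.5 times were 310 to 376 without any 1 of tumor-bearing osteoblast replicates 1 and 3, tumor-free osteoblast replicate 3, tumor-bearing endothelial replicates 1 and 2 and tumor-free endothelial replicates 2 and 3, and 878 without tumor-free osteoblast replicate 2. With tumor-free replicate 1 as the only tumor-free osteoblast array 1344 genes passed, of which 303 were among the 570, and the higher and lower genes differed by medians of 1.06 and -0.68. That fit has 1 array in a group and takes its spread from the other 3 groups, so the array is assumed to vary as they do, and its adjusted p-values below are no replicate check. The gene lists below are counted over the members tested. Of 917 genes on the lists, 852 were found in the files and 769 of these were bright enough to be tested. The lower osteoblast group lay wholly below the array medians for 32 of the 499 higher and 23 of the 71 lower genes, and a fold for them compares with dim values. Of these, 12 and 13 entered the test only through the 3 arrays of the higher osteoblast group, and so had to differ. Among genes named below these are Kera, Il11, Sema3c, Slc1a4, Wfdc17 and Vpreb3, while Itga8, Clec14a, Acr, Gda and Zbtb43 had dim values in the lower group and brighter ones in endothelial cells. No gene named below passed on the 6 osteoblast arrays alone, which is not repeated for each gene.

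In the deposited values as many genes were ordered by group upward as downward, and the upward changes were larger. This order was not examined under other scalings. With no filter on dim genes the calls split into 551 higher and 404 lower. The 3 tumor-bearing values lay wholly above the 3 tumor-free ones for 1535 genes (12.3%) and wholly below for 1535 (12.3%). Among them the median size was 0.84 for the higher and 0.41 for the lower genes (log2), and 571 against 32 differed by at least 2-fold. Of the 570 genes that passed, 568 (4.57% of all tested) had groups that did not overlap, 497 higher and 71 lower. For a gene that passed, a lack of overlap described below is therefore no added evidence. Of those that passed, 359 higher (2.89% of all tested) and 15 lower genes (0.121%) differed by at least 2-fold.

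**Figure D2:**
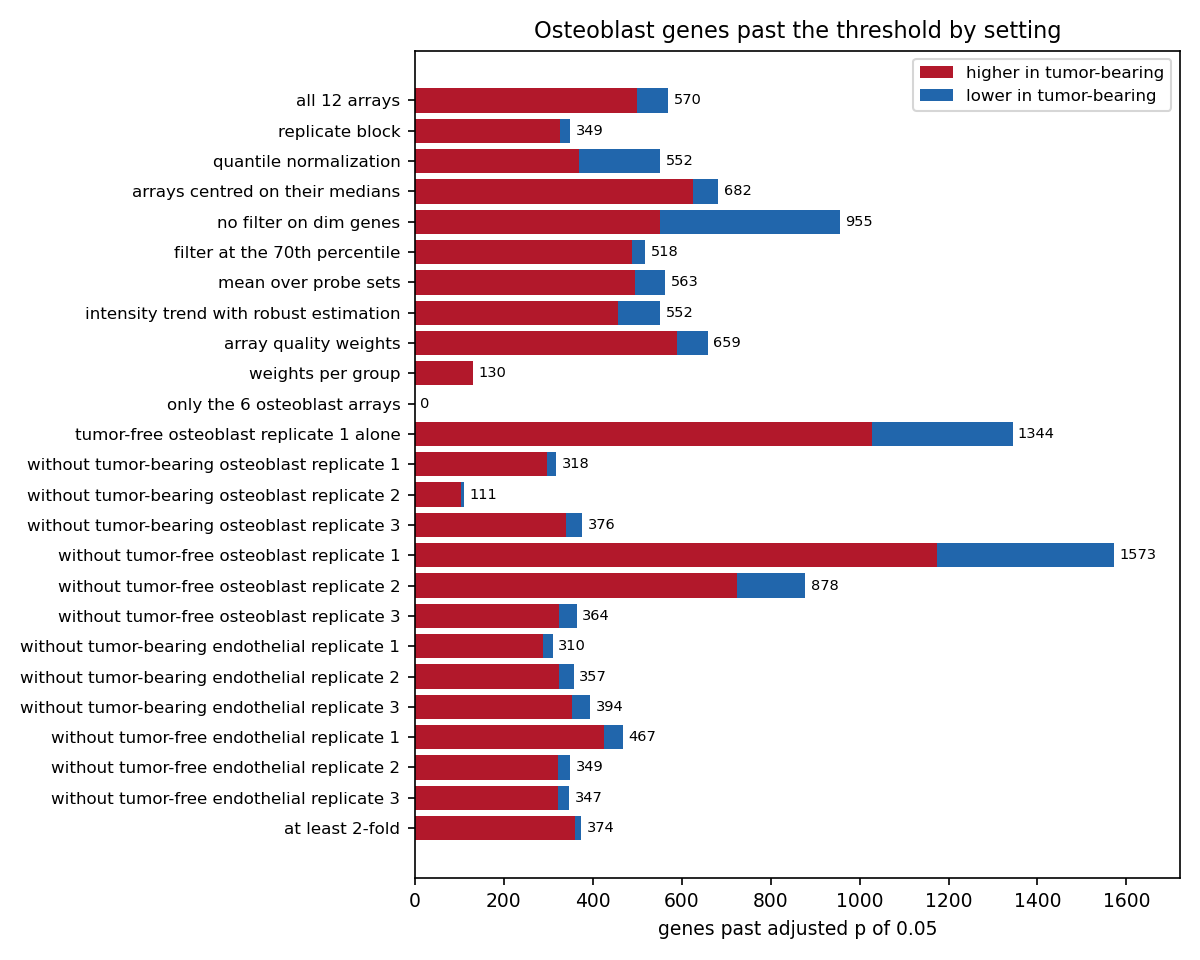
Number of osteoblast genes past an adjusted p of 0.05 (horizontal axis), higher (red) and lower (blue) in tumor-bearing mice, under each setting. The bar for all 12 arrays holds 570 genes; the counts run from 0 on the 6 osteoblast arrays alone to 1573 without tumor-free osteoblast replicate 1.

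The largest rise was that of F3, tissue factor, the membrane protein that starts blood clotting. Its values were 10.18, 10.69 and 9.89 in tumor-bearing replicates 1, 2 and 3 and 8.44, 5.12 and 4.75 in tumor-free ones (log2 expression). All 3 tumor-bearing arrays lay above the tumor-free arrays, of which replicate 1 was the highest. The difference was 4.15 ± 0.74 (log2, ± SE), or 17.8-fold (adjusted p = 0.0133). F5, coagulation factor V, had values of 8.79, 9.48 and 8.94 against 8.41, 5.30 and 4.94 (7.23-fold, adjusted p = 0.044). Tumor-free replicate 1 again lay just under the tumor-bearing values. The promoter of F3 is shown here because the gene rose most and because 2 matches to TGANTCA, the element bound by AP-1 factors such as Fos and Jun, lie within it, marked in capitals (RefSeq, GRCm38.p6, chr3:121723287-121723586, plus strand; 250 bases before the start and 50 after it).
F3: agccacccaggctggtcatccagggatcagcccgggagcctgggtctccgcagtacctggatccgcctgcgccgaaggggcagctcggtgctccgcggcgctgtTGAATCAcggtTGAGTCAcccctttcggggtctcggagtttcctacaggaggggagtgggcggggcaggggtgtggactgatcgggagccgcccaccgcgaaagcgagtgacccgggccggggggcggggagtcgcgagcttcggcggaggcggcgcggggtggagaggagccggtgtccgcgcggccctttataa
TGANTCA, which reads the same on both strands, occurred in 5.2% of 9859 such promoters of genes tested, in 5.83% of the 412 promoters of genes that rose and in 10.3% of the 58 of genes that fell. A match describes the letters of the window and shows no binding.

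Of the 12 largest rises, 4 passed whichever array was left out. Arih2, a ubiquitin ligase, stood at 9.79, 9.46 and 9.38 against 5.64, 7.26 and 6.23 in tumor-free mice (3.16 ± 0.43, adjusted p = 0.0057), with tumor-free replicate 1 the lowest array. Chil1, the secreted chitinase-like protein also known as YKL-40 in humans, stood at 9.71, 10.39 and 9.59 against 7.93, 6.25 and 6.44 (3.02 ± 0.39, adjusted p = 0.00527). Thbs3, a thrombospondin of the skeletal matrix, had 8.48, 9.37 and 9.43 against 6.84, 6.18 and 5.70 (2.85 ± 0.33, adjusted p = 0.00347). Gas2l3, which links actin and microtubules, had 8.68, 8.20 and 7.53 against 5.65, 5.35 and 4.53 (2.96 ± 0.39, adjusted p = 0.00542). In each of these the lowest tumor-bearing array stood above the highest tumor-free one by more than the SD of the tumor-bearing group. Cytl1, a secreted protein of cartilage, had the next largest rise after F3, at 11.08, 10.83 and 10.41 against 8.59, 6.68 and 5.01 (16.2-fold, adjusted p = 0.0131). Loxl4, a cross-linking enzyme of the lysyl oxidase family, rose 7.36-fold (adjusted p = 0.0131) and Fmo2, a flavin monooxygenase, 8.65-fold (adjusted p = 0.017). Tmbim1 rose 8.41-fold (adjusted p = 0.0136), Anxa8, an annexin, 7.86-fold (adjusted p = 0.0297) and Uck2, a uridine-cytidine kinase, 8.42-fold (adjusted p = 0.0401). A dimmer probe set of Uck2, Arih2 and Loxl4 differed by 1.69, 1.54 and 2.40 (log2), in the same direction. Arih2, Chil1, Gas2l3 and Thbs3 passed with any 1 of the 12 arrays left out. F3, Cytl1, Loxl4 and Tmbim1 lost the call without tumor-bearing osteoblast replicate 2 (adjusted p 0.0569 to 0.0642). Fmo2 lost the call without tumor-bearing osteoblast replicates 1 and 2, each left out alone (adjusted p 0.0557 to 0.0558). Anxa8 lost the call without tumor-bearing osteoblast replicates 1, 2 and 3 and tumor-free osteoblast replicate 3, each left out alone (adjusted p 0.0562 to 0.114). Uck2 and F5 passed without tumor-free osteoblast replicate 1 and with no other array left out (adjusted p 0.0526 to 0.146). Folds without tumor-free osteoblast replicate 1 were 39.9 for F3, 30.5 for Cytl1, 11.4 for Loxl4, 15 for Tmbim1, 15.6 for Anxa8, 17.1 for Uck2 and 15.5 for F5. Folds without tumor-free osteoblast replicate 3 were 11.1 for F3, 8.82 for Cytl1, 4.7 for Loxl4, 4.65 for Uck2 and 4.64 for F5. F3, Cytl1, Arih2, Chil1, Gas2l3, Thbs3, Loxl4, Tmbim1 and Anxa8 also passed when each group had its own spread (adjusted p 0.0114 to 0.0412), the others named here did not. Against tumor-free replicate 1 alone, the fold was 3.51 for F3, 4.55 for Cytl1, 14.9 for Arih2, 2.03 for Uck2, 2.65 for Tmbim1, 3.9 for Chil1, 2 for Anxa8, 3.07 for Loxl4, 1.58 for F5 and 4.76 for Thbs3, and Uck2, Anxa8 and F5 did not pass (adjusted p 0.0832 to 0.16).

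The falls were smaller. The largest was that of Wfdc17, a secreted protein of myeloid cells, at 5.18, 4.86 and 3.82 in tumor-bearing and 5.84, 7.34 and 8.96 in tumor-free mice (6.77-fold lower, adjusted p = 0.0366). It entered the test only through the tumor-free osteoblast arrays. It is one of the 18 macrophage markers, whose means were highest in the same 2 tumor-free arrays, replicates 2 and 3. Slc16a9, a transporter of the monocarboxylate family, stood at 4.93, 5.39 and 4.65 against 6.37, 7.11 and 6.26 (-1.60 ± 0.28, adjusted p = 0.0126), with every tumor-free array above the tumor-bearing ones. Ftl1, the ferritin light chain that stores iron, had 6.38, 6.50 and 5.65 against 7.31, 7.21 and 7.66 (-1.22 ± 0.24, adjusted p = 0.02). Kcnj8, a potassium channel subunit typical of pericytes, had 6.06, 5.15 and 5.79 against 6.56, 7.02 and 7.52 (-1.37 ± 0.27, adjusted p = 0.0208). Others of the 12 largest falls were Dmac1, which helps to assemble respiratory complex I (2.86-fold, adjusted p = 0.0299), Dnajc15, a co-chaperone (2.06-fold, adjusted p = 0.0418), and Ssbp1, which binds single-stranded mitochondrial DNA, at 9.28, 9.08 and 8.95 against 10.08, 9.98 and 10.36 (2.05-fold, adjusted p = 0.0339). The list of 26 genes of mitochondrial respiration had 0 members that passed in either direction (5 at an unadjusted p under 0.05) and a median of -0.12, or -0.25 by tumor-free replicate 1 alone. Rala, a small GTPase of exocytosis, was 2.31-fold lower (adjusted p = 0.026), Snapc3, a subunit of the complex that transcribes small nuclear RNA genes, 2.84-fold (adjusted p = 0.0489), and Nceh1, which hydrolyzes cholesterol esters, 2.35-fold (adjusted p = 0.0414). Clec14a, a lectin of endothelial cells, was 2.17-fold lower (adjusted p = 0.0348) and Nsrp1, a splicing regulator, 2.06-fold lower (adjusted p = 0.0343). Another, dimmer probe set differed by -0.18 for Slc16a9 and -0.11 for Ssbp1. Slc16a9 passed with any 1 of the 12 arrays left out. Kcnj8 lost the call without tumor-bearing osteoblast replicate 2 (adjusted p = 0.0814). Ftl1 lost the call without tumor-free osteoblast replicate 3 (adjusted p = 0.0526). Dmac1 lost the call without tumor-bearing osteoblast replicates 2 and 3 and tumor-free osteoblast replicate 3, each left out alone (adjusted p 0.0783 to 0.104). Rala lost the call without tumor-bearing osteoblast replicates 1, 2 and 3, each left out alone (adjusted p 0.0603 to 0.0726). Nsrp1 lost the call without tumor-bearing osteoblast replicates 1, 2 and 3, tumor-bearing endothelial replicates 1 and 3 and tumor-free endothelial replicate 3, each left out alone (adjusted p 0.0514 to 0.101). Ssbp1 lost the call without tumor-bearing osteoblast replicates 1, 2 and 3, tumor-free osteoblast replicate 3, tumor-bearing endothelial replicate 2 and tumor-free endothelial replicate 2, each left out alone (adjusted p 0.0541 to 0.116). Nceh1 passed without tumor-free osteoblast replicate 1, tumor-bearing endothelial replicate 3 and tumor-free endothelial replicates 1 and 2, each left out alone, and with no other array left out (adjusted p 0.05 to 0.133). Dnajc15 passed without tumor-free osteoblast replicate 1, tumor-bearing endothelial replicates 2 and 3 and tumor-free endothelial replicate 1, each left out alone, and with no other array left out (adjusted p 0.0547 to 0.107). Snapc3 passed without tumor-bearing osteoblast replicate 1, tumor-free osteoblast replicate 1 and tumor-free endothelial replicate 1, each left out alone, and with no other array left out (adjusted p 0.0649 to 0.163). Clec14a passed without tumor-free osteoblast replicate 1 and tumor-free endothelial replicates 1 and 2, each left out alone, and with no other array left out (adjusted p 0.0501 to 0.111). Wfdc17 passed without tumor-free osteoblast replicate 1 and with no other array left out (adjusted p 0.0519 to 0.106). Fold without tumor-free osteoblast replicate 1 was 11.6 for Wfdc17. Fold without tumor-free osteoblast replicate 3 was 3.92 for Wfdc17. None of Wfdc17, Slc16a9, Dmac1, Snapc3, Kcnj8, Nceh1, Ftl1, Rala, Clec14a, Nsrp1, Dnajc15 and Ssbp1 passed when each group had its own spread. Set against tumor-free replicate 1 alone, the fold was 2.33 for Wfdc17, 1.74 for Snapc3 and 3.7 for Rala, and Wfdc17, Dmac1, Snapc3, Kcnj8, Nceh1, Ftl1, Clec14a, Dnajc15 and Ssbp1 did not pass (adjusted p 0.0561 to 0.298).

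**Figure D3:**
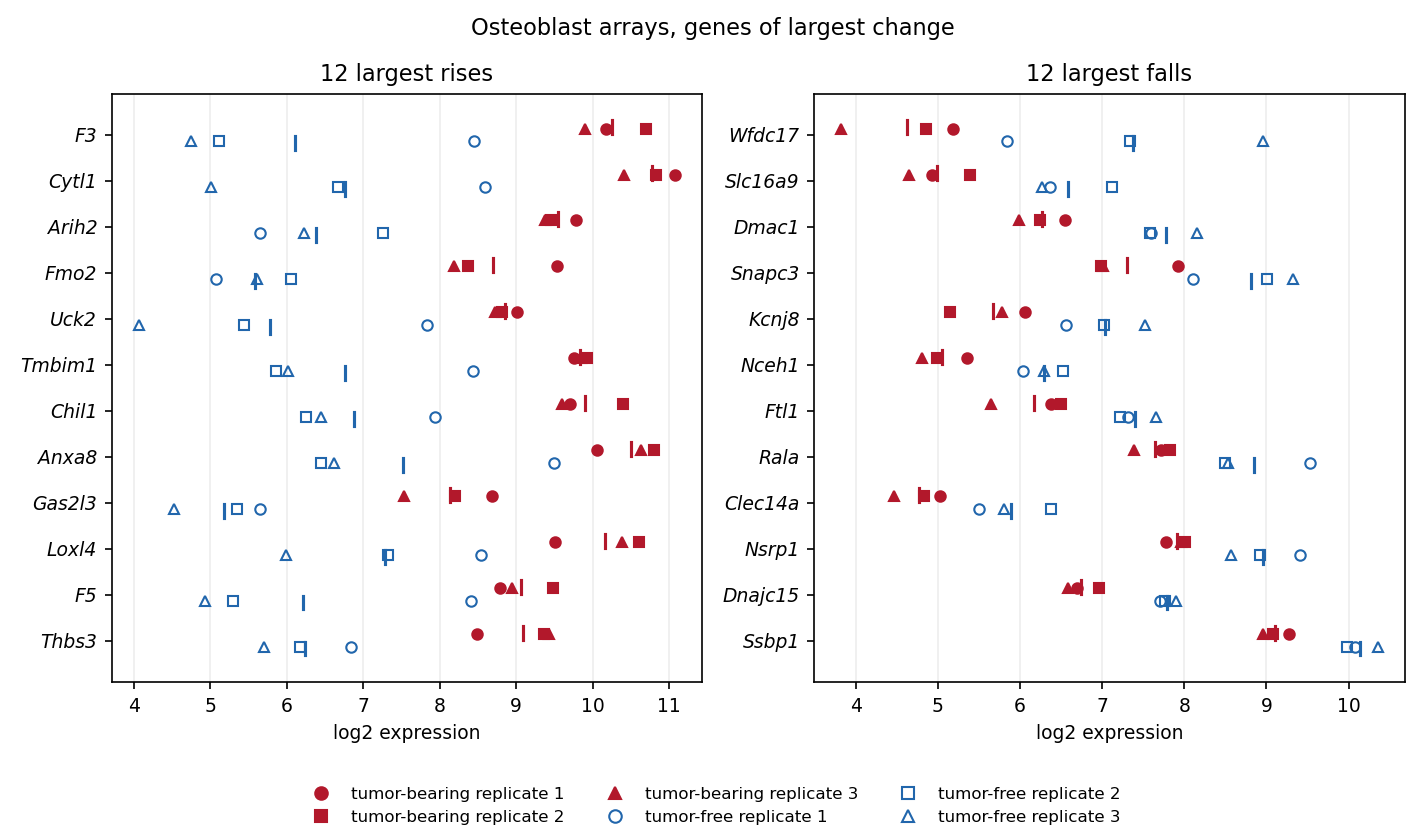
Log2 expression (horizontal axis) of the 12 genes with the largest rise (left) and the largest fall (right) on each osteoblast array of tumor-bearing (red, filled) and tumor-free (blue, open) mice; symbols mark replicates and vertical bars the group means. Tumor-free replicate 1 lies nearest to the tumor-bearing arrays for F3 (8.44) and F5 (8.41) and is the lowest tumor-free array for Arih2 (5.64).

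Among markers and transcription factors of osteoblasts 1 gene passed. Of 13 osteoblast markers 1 rose and 0 fell, with a median difference of -0.0042, or 0.64 by tumor-free replicate 1 alone, and of 15 osteoblast transcription factors 0 rose and 0 fell (3 at an unadjusted p under 0.05). Ibsp, bone sialoprotein, was at 11.85, 11.88 and 11.72 in tumor-bearing and 11.62, 11.90 and 11.97 in tumor-free mice (-0.02 ± 0.36, adjusted p = 0.985). Alpl, the alkaline phosphatase needed for mineralization, was at 10.26, 10.79 and 10.54 against 9.91, 9.96 and 9.62 (0.70 ± 0.24, adjusted p = 0.114), so its groups did not overlap but the difference did not pass. Sp7, the transcription factor osterix, had 7.99, 8.12 and 7.71 against 6.81, 8.04 and 7.78 (0.39 ± 0.33, adjusted p = 0.479). For Col1a1, a chain of type I collagen, tumor-free replicate 1 stood apart, with 10.40, 10.19 and 9.85 in tumor-bearing and 8.40, 11.29 and 11.34 in tumor-free mice. The difference of -0.20 ± 0.61 (adjusted p = 0.869) was 1.75 against tumor-free replicate 1 alone. Col1a2, the other chain, showed the same order, with 10.60, 10.35 and 10.02 against 8.59, 11.43 and 10.97 and differences of -0.0042 ± 0.57 (adjusted p = 0.998) and 1.73. Dmp1, a matrix protein of osteocytes, had 8.27, 6.97 and 7.98 against 7.90, 9.63 and 7.48 (-0.60 ± 0.48, adjusted p = 0.464). Pth1r, the receptor for parathyroid hormone, stood at 10.02, 10.65 and 10.62 against 8.85, 9.92 and 8.56 (1.32 ± 0.34, adjusted p = 0.0547).

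The marker that rose was Tnn, tenascin W, at 7.86, 7.46 and 6.77 against 6.02, 5.98 and 5.85 (2.66-fold, adjusted p = 0.0102), with all tumor-free arrays close together. Of 14 mineralization genes 2 rose (14.3%, median 0.40, or 0.63 by tumor-free replicate 1 alone). These were Slc20a1, a phosphate transporter, at 8.83, 8.35 and 8.0 against 7.05, 6.16 and 6.25 (3.74-fold, adjusted p = 0.0116), and Smpd3, a sphingomyelinase needed for bone mineralization, at 7.13, 7.75 and 7.40 against 6.44, 6.51 and 6.30 (2.02-fold, adjusted p = 0.0121). Of 21 genes that modify and cross-link collagen 2 rose (9.52%, median 0.45), Loxl4 and P4ha2, a prolyl hydroxylase subunit, which stood at 8.32, 8.99 and 9.24 against 7.50, 6.53 and 6.07 (4.44-fold, adjusted p = 0.0191). With 1 array left out, 0 to 3 of the mineralization genes and 0 to 5 of the collagen-modifying genes rose, fewest without tumor-bearing osteoblast replicate 2. Tnn, Slc20a1 and Smpd3 lost the call without tumor-bearing osteoblast replicate 2 (adjusted p = 0.0511). P4ha2 lost the call without tumor-bearing osteoblast replicates 2 and 3, each left out alone (adjusted p 0.0551 to 0.0814). None of Tnn, Slc20a1, Smpd3 and P4ha2 passed when each group had its own spread. With tumor-free replicate 1 as the only tumor-free array, the fold was 2.55 for P4ha2, and P4ha2 and Slc20a1 did not pass (adjusted p 0.0634 to 0.108).

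Genes that act on osteoclasts held the highest share of rises among the lists of bone biology. Of 15 tested, 5 rose (33.3%, against 4.01% of all genes) and 0 fell, with a median of 0.97. Il11, among the 5, entered the test only through the tumor-bearing osteoblast arrays and so had to differ. Ptgs2, the inducible cyclooxygenase that makes prostaglandins, was at 10.47, 10.56 and 9.30 in tumor-bearing and 7.0, 8.15 and 6.94 in tumor-free mice (2.75 ± 0.44, 6.71-fold, adjusted p = 0.0102). Every tumor-bearing array exceeded the highest tumor-free one. Lif, a cytokine of the interleukin-6 family, stood at 7.33, 8.86 and 6.99 against 5.43, 6.18 and 5.05 (4.51-fold, adjusted p = 0.0265), highest in tumor-bearing replicate 2. Il11, of the same family, had 5.73, 6.36 and 5.84 against 4.96, 4.69 and 4.93 (2.17-fold, adjusted p = 0.0133), and Osmr, the receptor chain for oncostatin M, 9.80, 10.07 and 9.53 against 8.37, 7.66 and 6.43 (4.97-fold, adjusted p = 0.0102). Tnfrsf11b, osteoprotegerin, stood at 7.62, 8.19 and 7.14 against 6.67, 5.87 and 5.57 (3.06-fold, adjusted p = 0.0148). Its partner Tnfsf11, RANKL, was at 8.39, 7.51 and 7.84 against 7.33, 7.98 and 7.66, with overlapping groups (0.25 ± 0.24, adjusted p = 0.535). Csf1 was at 8.74, 7.65 and 7.24 against 7.10, 7.80 and 8.86 (-0.05 ± 0.44, adjusted p = 0.959). Il6 had the largest difference of the list that did not pass, at 8.93, 8.03 and 7.74 against 7.18, 4.59 and 3.45 (3.16 ± 0.92, adjusted p = 0.0747), with tumor-free replicate 1 at 7.18 close to the tumor-bearing arrays. Without tumor-bearing osteoblast replicate 2, 0 of the 15 rose, and without tumor-free osteoblast replicate 1, 7 did. Ptgs2, Il11, Osmr and Tnfrsf11b lost the call without tumor-bearing osteoblast replicate 2 (adjusted p 0.0511 to 0.063). Lif lost the call without tumor-bearing osteoblast replicate 2 and tumor-free osteoblast replicate 3, each left out alone (adjusted p 0.0647 to 0.0713). Ptgs2, Osmr and Tnfrsf11b also passed when each group had its own spread (adjusted p 0.024 to 0.0496), the others named here did not. Relative to tumor-free replicate 1 alone, the fold was 2.7 for Osmr and 1.97 for Tnfrsf11b, and Tnfrsf11b did not pass (adjusted p = 0.0846).

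A few inflammatory genes rose. Of 15 genes of interleukin-6 family signaling 3 rose, Osmr, Lbp and Stat3 (20%, median 0.58). Lbp, an acute phase protein that binds lipopolysaccharide, was at 8.87, 9.07 and 8.53 in tumor-bearing and 6.35, 6.79 and 7.18 in tumor-free mice (2.05 ± 0.22, adjusted p = 0.00254). Stat3, the transcription factor these receptors activate, was at 8.92, 9.05 and 8.69 against 7.86, 8.23 and 8.16 (1.74-fold, adjusted p = 0.0453). Among 20 cytokines and chemokines 3 rose, Ptgs2, Lif and Cxcl1, a chemokine for neutrophils, at 9.42, 9.30 and 9.18 against 8.59, 8.33 and 7.51 (2.23-fold, adjusted p = 0.0478). The 15 feedback genes of NF-kB all differed upward, with a median of 0.72, or 0.48 by tumor-free replicate 1 alone, but 0 passed (8 at an unadjusted p under 0.05). The number that rose with 1 array left out was 1 to 4 of the interleukin-6 family genes (fewest without tumor-bearing osteoblast replicate 2, most without tumor-free osteoblast replicate 1 or 2), 0 to 4 of the cytokines and chemokines (fewest without tumor-bearing osteoblast replicate 2, most without tumor-free osteoblast replicate 1 or tumor-free endothelial replicate 1) and 0 to 6 of the NF-kB feedback genes (most without tumor-free osteoblast replicate 1). Of 17 interferon-stimulated genes 0 rose and 0 fell (median 0.64, 1 at an unadjusted p under 0.05), and of 12 genes of MHC class I and antigen processing likewise 0 (median -0.21, or 0.40 by tumor-free replicate 1 alone, 1 at an unadjusted p under 0.05). Lbp passed with any 1 of the 12 arrays left out. Cxcl1 passed without tumor-free osteoblast replicates 1 and 2 and tumor-free endothelial replicate 1, each left out alone, and with no other array left out (adjusted p 0.0572 to 0.14). Stat3 passed without tumor-free osteoblast replicate 2 and tumor-free endothelial replicate 1, each left out alone, and with no other array left out (adjusted p 0.0512 to 0.155). Lbp also passed when each group had its own spread (adjusted p = 0.0114), the others named here did not. Taking tumor-free replicate 1 alone, Cxcl1 did not pass (adjusted p = 0.181).

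Cartilage genes showed the largest median of the lists examined. All 21 chondrocyte genes were measured and tested. Their median difference was 1.76, or 0.37 by tumor-free replicate 1 alone, and all 21 differed upward, of which 5 rose (23.8%) and 0 fell. Col2a1, type II collagen, the main collagen of cartilage, was at 9.38, 10.64 and 10.54 in tumor-bearing and 8.81, 8.42 and 7.57 in tumor-free mice (1.92 ± 0.37, adjusted p = 0.0194). Sox5 and Sox6, the partners of the chondrocyte regulator Sox9, were at 6.51, 6.98 and 7.45 against 5.78, 5.29 and 5.52 (2.73-fold, adjusted p = 0.00789) and 7.13, 7.61 and 7.63 against 6.92, 5.86 and 5.70 (2.45-fold, adjusted p = 0.0295). Sox5 was the steadier of these, with tumor-free arrays at 5.78 or lower. Col9a2, a chain of type IX collagen named after its values were seen, rose 2.25-fold (adjusted p = 0.0357). The tumor-free arrays of many other members were spread too widely to pass. Acan, the large proteoglycan aggrecan, stood at 10.60, 11.19 and 11.10 against 10.88, 9.35 and 5.26 (2.47 ± 1.09, adjusted p = 0.195), and tumor-free replicate 1 exceeded the lowest tumor-bearing array. Sox9, chosen after its values were seen, had 10.24, 10.09 and 9.76 against 9.66, 7.54 and 6.82 (adjusted p = 0.0604), and Snorc, a cartilage proteoglycan chosen likewise, 11.08, 11.71 and 11.61 against 10.84, 8.69 and 6.30 (adjusted p = 0.081). Between 1 and 15 of the 21 rose with 1 array left out, fewest without tumor-bearing osteoblast replicate 2 and most without tumor-free osteoblast replicate 1, and the median ran from 1.02 without tumor-free osteoblast replicate 3 to 2.57 without tumor-free osteoblast replicate 1.

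Of 34 proteoglycans and matricellular proteins, among them the chondrocyte markers Acan, Prg4 and Chad, 10 rose (29.4%, median 0.45) and 0 fell. Kera, keratocan, a small proteoglycan of cornea and tendon, was at 6.42, 7.50 and 6.79 against 5.03, 3.92 and 3.98 (2.59 ± 0.31, adjusted p = 0.00445), with every tumor-bearing array above all tumor-free ones. It entered the test only through the tumor-bearing osteoblast arrays. Thbs4, a thrombospondin of tendon, was at 8.88, 8.61 and 6.82 against 5.50, 5.51 and 6.03 (5.35-fold, adjusted p = 0.0132), and Fmod, fibromodulin, at 10.33, 10.92 and 10.73 against 9.57, 8.53 and 6.30 (5.76-fold, adjusted p = 0.0466). These are also the 3 that rose of 12 fibroblast and tendon markers (median 0.31, or 0.66 by tumor-free replicate 1 alone), of which 9 differed upward. The number that rose with 1 array left out was 2 to 15 of the proteoglycans and matricellular proteins (fewest without tumor-bearing osteoblast replicate 2, most without tumor-free osteoblast replicate 1) and 1 to 4 of the fibroblast and tendon markers (fewest without tumor-bearing osteoblast replicate 2, most without tumor-free osteoblast replicate 1). Sox5 and Kera passed with any 1 of the 12 arrays left out. Cytl1 and Thbs4 lost the call without tumor-bearing osteoblast replicate 2 (adjusted p 0.0569 to 0.0642). Col2a1 lost the call without tumor-bearing osteoblast replicates 2 and 3, each left out alone (adjusted p 0.0555 to 0.0898). Sox6 lost the call without tumor-bearing osteoblast replicates 2 and 3, tumor-free osteoblast replicates 2 and 3 and tumor-bearing endothelial replicate 1, each left out alone (adjusted p 0.0511 to 0.114). Col9a2 passed without tumor-bearing osteoblast replicate 1 and tumor-free osteoblast replicate 1, each left out alone, and with no other array left out (adjusted p 0.0508 to 0.133). Fmod passed without tumor-free osteoblast replicates 1 and 3, each left out alone, and with no other array left out (adjusted p 0.05 to 0.148). Folds without tumor-free osteoblast replicate 1 were 30.5 for Cytl1 and 9.49 for Fmod. Folds without tumor-free osteoblast replicate 3 were 8.82 for Cytl1 and 3.05 for Fmod. Fold without tumor-bearing osteoblast replicate 3 was 8.35 for Thbs4. Cytl1, Sox5 and Kera also passed when each group had its own spread (adjusted p 0.0114 to 0.0406), the others named here did not. Against tumor-free replicate 1 alone, the fold was 4.55 for Cytl1, 1.45 for Sox6, 3.67 for Kera and 2.12 for Fmod, and Col2a1, Sox6, Fmod and Col9a2 did not pass (adjusted p 0.0638 to 0.172). Other members were named after their values were seen. Fn1, fibronectin, rose 2.16-fold (adjusted p = 0.0294), Thbs1, a thrombospondin that activates TGF-beta, 2.15-fold (adjusted p = 0.0343), and Bgn, biglycan, 1.84-fold (adjusted p = 0.032). Of 24 collagens 2 rose (median -0.17, or 0.20 by tumor-free replicate 1 alone), Col12a1, a collagen that associates with fibrils (1.68-fold, adjusted p = 0.0316), and Col6a1, of the pericellular type VI collagen (2.02-fold, adjusted p = 0.0489).

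Among 22 matrix proteases and inhibitors 3 rose (13.6%, median 0.29, or 0.75 by tumor-free replicate 1 alone). Timp3, an inhibitor of metalloproteases held in the matrix, was at 10.54, 10.98 and 10.72 against 9.82, 7.80 and 8.62 (3.98-fold, adjusted p = 0.0207). Adamts1, a protease of proteoglycans, was at 9.54, 9.24 and 9.19 against 8.51, 7.97 and 8.20 (2.14-fold, adjusted p = 0.0313), and Ctsl, the lysosomal protease cathepsin L, at 10.28, 10.17 and 9.88 against 9.49, 9.65 and 9.40 (1.51-fold, adjusted p = 0.0465). Plau, the urokinase that activates plasminogen, was at 7.65, 8.21 and 6.96 against 5.90, 6.02 and 5.25 (3.69-fold, adjusted p = 0.0128); with F3 and F5 it made up the 3 of 18 complement and coagulation genes that rose. Thbs3 passed with any 1 of the 12 arrays left out. Plau lost the call without tumor-bearing osteoblast replicate 2 (adjusted p = 0.0555). Timp3 lost the call without tumor-bearing osteoblast replicate 2 and tumor-free osteoblast replicate 3, each left out alone (adjusted p 0.051 to 0.0899). Fn1 lost the call without tumor-bearing osteoblast replicates 1, 2 and 3 and tumor-free osteoblast replicate 3, each left out alone (adjusted p 0.0525 to 0.114). Col12a1 lost the call without tumor-bearing osteoblast replicates 2 and 3, tumor-free osteoblast replicate 3 and tumor-free endothelial replicates 2 and 3, each left out alone (adjusted p 0.0515 to 0.121). Thbs1 lost the call without tumor-bearing osteoblast replicates 1, 2 and 3, tumor-free osteoblast replicate 3, tumor-bearing endothelial replicate 1 and tumor-free endothelial replicate 3, each left out alone (adjusted p 0.0545 to 0.127). Bgn lost the call without tumor-bearing osteoblast replicates 1, 2 and 3, tumor-free osteoblast replicate 3 and tumor-bearing endothelial replicates 1 and 2, each left out alone (adjusted p 0.0508 to 0.116). Adamts1 passed without tumor-free osteoblast replicate 1, tumor-bearing endothelial replicate 3 and tumor-free endothelial replicates 1, 2 and 3, each left out alone, and with no other array left out (adjusted p 0.0501 to 0.0933). Ctsl passed without tumor-bearing osteoblast replicate 3 and tumor-free osteoblast replicates 1 and 2, each left out alone, and with no other array left out (adjusted p 0.0615 to 0.15). Col6a1 passed without tumor-free osteoblast replicate 1 and tumor-bearing endothelial replicate 2, each left out alone, and with no other array left out (adjusted p 0.0563 to 0.165). Thbs3 and Timp3 also passed when each group had its own spread (adjusted p 0.0141 to 0.0387), the others named here did not. Set against tumor-free replicate 1 alone, the fold was 4.76 for Thbs3 and 1.89 for Timp3, and Adamts1, Ctsl, Col12a1, Col6a1, Thbs1, Fn1 and Bgn did not pass (adjusted p 0.0885 to 0.166).

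**Figure D4:**
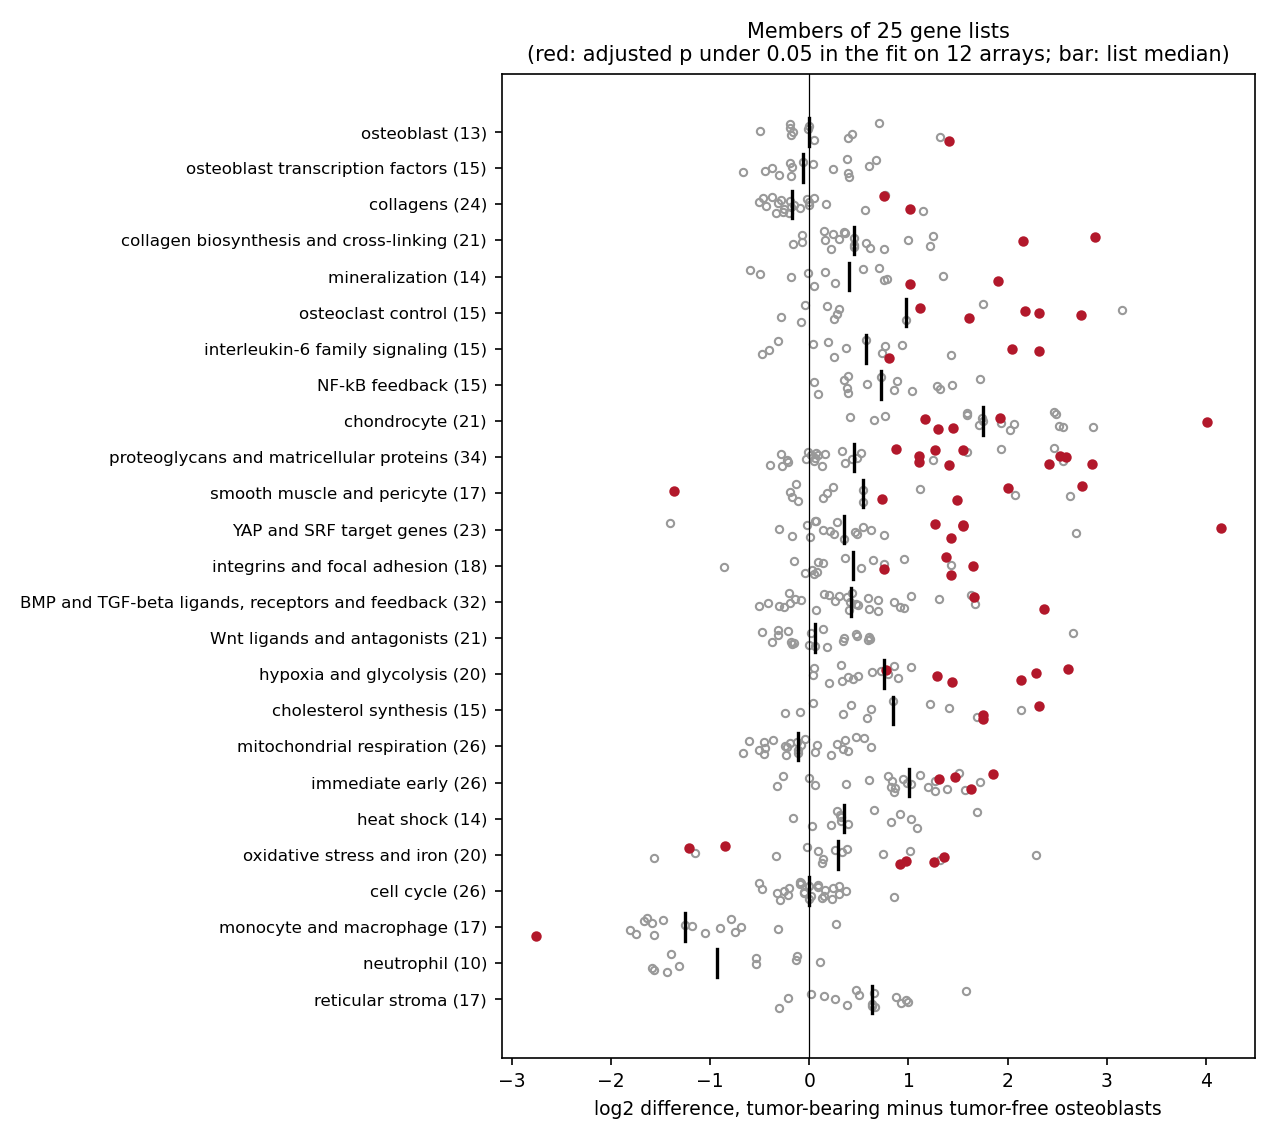
Log2 difference between osteoblasts of tumor-bearing and tumor-free mice (horizontal axis) for each tested member of 25 gene lists (number of members in parentheses); red points passed an adjusted p of 0.05, open grey points did not, and black bars are list medians. The chondrocyte list has the highest median (1.76), with 5 of 21 members passing, and the macrophage list the lowest (-1.26), with 1 of 17.

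Some genes of the contractile cytoskeleton and of adhesion rose. Of 17 smooth muscle and pericyte genes 4 rose and 1 fell, with a median of 0.54. Acta2, smooth muscle actin, was at 9.59, 9.77 and 8.35 in tumor-bearing and 6.51, 6.97 and 5.96 in tumor-free mice (2.76 ± 0.47, adjusted p = 0.0118), and Tagln, transgelin, at 7.28, 7.20 and 6.14 against 5.79, 5.12 and 5.23 (2.81-fold, adjusted p = 0.0258). Both were lowest among tumor-bearing arrays in replicate 3. Smtn, smoothelin, rose 1.66-fold (adjusted p = 0.0273) and Cnn1, a calponin named after its values were seen, 4.01-fold (adjusted p = 0.0395). The member that fell was Kcnj8. Of 23 targets of YAP and SRF, which respond to tension in the cytoskeleton, 5 rose (21.7%, median 0.35): F3, Ccn1, Ccn2, Vcl and Crim1. Ccn2, the matrix signaling protein known as connective tissue growth factor, was at 10.05, 10.48 and 10.27 against 9.32, 8.58 and 8.24 (2.94-fold, adjusted p = 0.0132), and Ccn1, its relative, at 10.88, 11.16 and 10.91 against 9.80, 9.61 and 9.73 (2.41-fold, adjusted p = 0.0134). Vcl, vinculin, which ties integrins to actin, was at 8.82, 8.49 and 8.94 against 7.43, 7.58 and 6.96 (2.69-fold, adjusted p = 0.00785). Crim1, which binds BMPs and was named after its values were seen, rose 2.94-fold (adjusted p = 0.041).

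Of 18 integrins and focal adhesion genes 4 rose (22.2%, median 0.44, or 0.74 by tumor-free replicate 1 alone) and 0 fell. Besides Vcl these were Cd44, the hyaluronan receptor, at 7.85, 7.81 and 7.24 against 6.03, 6.22 and 6.51 (2.61-fold, adjusted p = 0.00967), Itga8 at 7.18, 6.76 and 5.64 against 4.75, 4.88 and 5.01 (3.14-fold, adjusted p = 0.0233), and Itgb1, the common beta chain, at 10.59, 10.19 and 10.02 against 9.21, 9.81 and 9.5 (1.69-fold, adjusted p = 0.0489). The number that rose with 1 array left out was 0 to 6 of the smooth muscle and pericyte genes (fewest without tumor-bearing osteoblast replicate 2, most without tumor-free osteoblast replicate 1), 1 to 8 of the YAP and SRF targets (fewest without tumor-bearing osteoblast replicate 2, most without tumor-free osteoblast replicate 1) and 1 to 5 of the integrins and focal adhesion genes (fewest without tumor-bearing osteoblast replicate 2, most without tumor-free osteoblast replicate 2). Itgav, the chain used in the sort, differed by 0.53 ± 0.27 (adjusted p = 0.253). Cav1, the main protein of caveolae, named after its values were seen, stood at 7.77, 8.12 and 7.92 against 6.14, 4.90 and 4.96 (2.61 ± 0.31, adjusted p = 0.00412). Vcl and Cav1 passed with any 1 of the 12 arrays left out. Acta2, Ccn2, Ccn1 and Cd44 lost the call without tumor-bearing osteoblast replicate 2 (adjusted p 0.0508 to 0.0654). Itga8 lost the call without tumor-bearing osteoblast replicates 1 and 2, each left out alone (adjusted p 0.062 to 0.0981). Tagln and Smtn lost the call without tumor-bearing osteoblast replicates 1 and 2 and tumor-free osteoblast replicate 3, each left out alone (adjusted p 0.0572 to 0.112). Cnn1 passed without tumor-bearing osteoblast replicate 3, tumor-free osteoblast replicate 1 and tumor-free endothelial replicates 1 and 3, each left out alone, and with no other array left out (adjusted p 0.0535 to 0.14). Crim1 passed without tumor-free osteoblast replicate 1 and with no other array left out (adjusted p 0.0572 to 0.145). Itgb1 passed without tumor-free osteoblast replicate 2 and with no other array left out (adjusted p 0.0512 to 0.14). Vcl, Ccn2 and Cav1 also passed when each group had its own spread (adjusted p 0.0114 to 0.0482), the others named here did not. With tumor-free replicate 1 as the only tumor-free array, the fold was 1.93 for Ccn2, 3.46 for Cav1 and 1.38 for Crim1, and Tagln, Smtn, Ccn2, Cnn1 and Crim1 did not pass (adjusted p 0.0669 to 0.254).

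Each list of signaling pathways of bone had 2 members or fewer that rose, so a share rests on few genes. The share was 13.3% for insulin-like growth factor and for Notch, 11.1% for parathyroid hormone response and 10% for hedgehog. It was 6.25% for BMP and TGF-beta, 5% for vascular factors and 0% for Wnt and fibroblast growth factor. Of all genes tested 4.01% rose. Of 32 ligands, receptors and feedback genes of BMP and TGF-beta 2 rose (6.25%, median 0.42). The number that rose with 1 array left out was 0 to 4 of the 32 (fewest without tumor-bearing osteoblast replicate 2, most without tumor-free osteoblast replicate 1 or 2). Medians with 1 array left out ran from 0.19 to 0.73 for this list (lowest without tumor-bearing osteoblast replicate 1, highest without tumor-bearing osteoblast replicate 3). The members that rose were the ligand Tgfb2, at 8.88, 9.70 and 8.99 against 8.03, 6.13 and 6.31 (5.15-fold, adjusted p = 0.0173), and the BMP receptor Bmpr1a, at 7.64, 7.70 and 7.56 against 6.15, 5.17 and 6.61 (3.16-fold, adjusted p = 0.0138). In hedgehog signaling 1 of 10 rose, Ptch1, the receptor that is also a target of the pathway, at 8.37, 9.09 and 9.05 against 6.35, 7.13 and 7.06 (1.99 ± 0.26, adjusted p = 0.00542), with tumor-free replicate 1 the lowest array. Of 15 insulin-like growth factor genes 2 rose, both receptors: Igf1r, which signals, at 6.95, 7.11 and 7.03 against 5.87, 6.05 and 5.96 (2.1-fold, adjusted p = 0.00604), and Igf2r, which clears its ligand, at 8.41, 8.65 and 8.42 against 8.01, 7.58 and 7.30 (1.82-fold, adjusted p = 0.0296). The spread of Igf1r was small in both groups. Among 15 Notch genes the ligand Jag1, at 7.82, 7.46 and 6.79 against 5.27, 6.27 and 6.47 (2.55-fold, adjusted p = 0.0426), and the transcription factor Rbpj, at 8.85, 8.95 and 8.52 against 7.70, 8.27 and 7.18 (2.09-fold, adjusted p = 0.0419), rose. Another, dimmer probe set of Rbpj differed by -0.25. Jag1 acts on Notch receptors of neighboring cells and is known as a TGF-beta target in bone metastasis.

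Of 18 genes that respond to parathyroid hormone 2 rose (median 0.70), Nr4a1, an orphan nuclear receptor, at 9.07, 9.06 and 8.53 against 7.34, 7.50 and 6.94 (3.09-fold, adjusted p = 0.00942), and Fosb. Both also belong to the immediate early genes. Of 20 vascular growth and guidance factors 1 rose, the semaphorin Sema3c, at 5.93, 6.11 and 5.6 against 5.09, 4.66 and 4.62 (2.13-fold, adjusted p = 0.0102). Sema3c entered the test only through the tumor-bearing osteoblast arrays and so had to differ. Neither Wnt ligands and antagonists (0 of 21, median 0.06, 2 at an unadjusted p under 0.05) nor fibroblast growth factor genes (0 of 17, median 0.55, 7 likewise) had a member past the threshold. Fgf2, named after its values were seen, came close, at 6.27, 7.46 and 7.59 against 5.94, 4.84 and 4.28 (adjusted p = 0.052). Hbegf and Rcan1, a growth factor of the EGF family and an inhibitor of calcineurin, were also named after their values were seen. They rose 5.44-fold (adjusted p = 0.0204) and 5.36-fold (adjusted p = 0.021). Ptch1, Igf1r and Nr4a1 passed with any 1 of the 12 arrays left out. Tgfb2, Bmpr1a, Sema3c and Rcan1 lost the call without tumor-bearing osteoblast replicate 2 (adjusted p 0.0511 to 0.0917). Hbegf lost the call without tumor-bearing osteoblast replicates 1 and 2 and tumor-free osteoblast replicate 3, each left out alone (adjusted p 0.051 to 0.0899). Igf2r lost the call without tumor-bearing osteoblast replicates 1, 2 and 3, tumor-free osteoblast replicate 3 and tumor-bearing endothelial replicate 1, each left out alone (adjusted p 0.0523 to 0.116). Jag1 passed without tumor-bearing osteoblast replicate 3 and tumor-free osteoblast replicates 1, 2 and 3, each left out alone, and with no other array left out (adjusted p 0.0574 to 0.14). Rbpj passed without tumor-free osteoblast replicates 1 and 2 and tumor-free endothelial replicate 1, each left out alone, and with no other array left out (adjusted p 0.0557 to 0.145). Folds without tumor-free osteoblast replicate 1 were 7.84 for Tgfb2 and 8.6 for Rcan1. Tgfb2, Bmpr1a, Ptch1, Igf1r, Sema3c and Rcan1 also passed when each group had its own spread (adjusted p 0.0308 to 0.0457), the others named here did not. Relative to tumor-free replicate 1 alone, the fold was 2.23 for Tgfb2, 4.24 for Jag1, 2.85 for Hbegf and 2.08 for Rcan1, and Tgfb2, Igf2r, Sema3c, Hbegf and Rcan1 did not pass (adjusted p 0.0508 to 0.152).

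Glycolysis genes rose in larger number than any other metabolic list examined. Of 20 genes of hypoxia and glycolysis 6 rose (30%) and 0 fell, the median was 0.75, and all 20 differed upward. The 6 act in glucose uptake, in steps of glycolysis or their control, and in making lactate from pyruvate. Slc2a1, the glucose transporter GLUT1, was at 9.0, 9.68 and 9.01 in tumor-bearing and 7.69, 7.50 and 6.10 in tumor-free mice (2.13 ± 0.40, adjusted p = 0.0173). Hk2, the hexokinase that traps glucose in the cell, was at 8.84, 9.41 and 8.29 against 7.01, 5.68 and 6.02 (2.61 ± 0.39, adjusted p = 0.00757), with a gap between the groups. Pfkp, a phosphofructokinase, and Pfkfb3, which makes its activator, were named after their values were seen and rose 2.44-fold (adjusted p = 0.03) and 4.89-fold (adjusted p = 0.0453). Tpi1, triosephosphate isomerase, stood at 9.42, 9.45 and 9.42 against 7.53, 8.55 and 7.88 (1.44 ± 0.23, adjusted p = 0.00989), and the tumor-bearing arrays were nearly equal. Ldha, which turns pyruvate into lactate, was at 8.76, 9.06 and 9.04 against 8.38, 8.02 and 8.14 (1.71-fold, adjusted p = 0.0295). Vegfa, a textbook hypoxia target, differed by 0.20 and did not pass. Between 2 and 10 of the 20 rose with 1 array left out, fewest without tumor-bearing osteoblast replicate 2 and most without tumor-free osteoblast replicate 1, while the median stayed between 0.68 and 0.79. Hk2 and Tpi1 passed with any 1 of the 12 arrays left out. Slc2a1 lost the call without tumor-bearing osteoblast replicate 2 (adjusted p = 0.0817). Ldha lost the call without tumor-bearing osteoblast replicates 2 and 3 and tumor-free osteoblast replicate 3, each left out alone (adjusted p 0.0666 to 0.116). Pfkp lost the call without tumor-bearing osteoblast replicates 1 and 2, tumor-free osteoblast replicate 3 and tumor-bearing endothelial replicate 1, each left out alone (adjusted p 0.0519 to 0.098). Pfkfb3 passed without tumor-free osteoblast replicate 1 and with no other array left out (adjusted p 0.0553 to 0.14). Fold without tumor-free osteoblast replicate 1 was 8.11 for Pfkfb3. Fold without tumor-free osteoblast replicate 3 was 2.99 for Pfkfb3. Hk2 and Tpi1 also passed when each group had its own spread (adjusted p = 0.0335), the others named here did not. Taking tumor-free replicate 1 alone, the fold was 3.57 for Hk2, 2.91 for Slc2a1 and 1.78 for Pfkfb3, and Ldha, Pfkfb3 and Pfkp did not pass (adjusted p 0.1 to 0.189).

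The promoters of 3 of these genes are shown because the core of the element bound by hypoxia-inducible factors, ACGTG or CACGT on the other strand, lies within them (RefSeq, GRCm38.p6, 250 bases before the start and 50 after it, 5′ to 3′ on the gene's strand; matches in capitals). They lie at chr6:82774405-82774704, minus strand, for Hk2, at chr4:119108495-119108794, plus strand, for Slc2a1, and at chr7:46845554-46845853, plus strand, for Ldha.
Hk2: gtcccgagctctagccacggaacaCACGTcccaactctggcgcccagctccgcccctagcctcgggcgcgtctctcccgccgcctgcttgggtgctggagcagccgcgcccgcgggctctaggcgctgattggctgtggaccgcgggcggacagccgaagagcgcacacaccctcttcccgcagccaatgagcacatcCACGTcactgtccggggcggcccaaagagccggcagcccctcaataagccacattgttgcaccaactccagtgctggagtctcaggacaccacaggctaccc
Slc2a1: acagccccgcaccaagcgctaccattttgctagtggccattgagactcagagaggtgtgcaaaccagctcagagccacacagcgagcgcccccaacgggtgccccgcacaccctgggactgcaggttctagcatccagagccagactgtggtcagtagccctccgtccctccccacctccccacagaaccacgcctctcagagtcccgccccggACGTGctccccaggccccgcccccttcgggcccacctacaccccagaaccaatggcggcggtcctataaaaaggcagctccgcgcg
Ldha: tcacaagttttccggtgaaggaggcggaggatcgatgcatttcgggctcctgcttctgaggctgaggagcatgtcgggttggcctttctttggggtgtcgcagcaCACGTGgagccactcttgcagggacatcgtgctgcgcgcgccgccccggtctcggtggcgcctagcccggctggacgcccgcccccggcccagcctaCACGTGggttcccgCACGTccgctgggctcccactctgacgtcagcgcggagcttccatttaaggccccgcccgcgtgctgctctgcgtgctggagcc
Hk2 holds 2 matches, Slc2a1 1 and Ldha 5, some of which overlap on opposite strands. Pfkfb3 holds 1, and Pfkp and Tpi1 hold 0 in this window. The letters occurred in 25.2% of the 9859 promoters of genes tested, in 29.4% of those of genes that rose, in 17.2% of those of genes that fell and in 55.6% of the 18 promoters of the hypoxia and glycolysis list. Promoters of genes that rose were also richer in G and C, with a median of 64% against 61% for all and 55% for genes that fell. The part of base composition in these shares was not tested, and no match shows that a factor binds there.

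Of 15 cholesterol synthesis genes 3 rose (20%, median 0.84, or 0.10 by tumor-free replicate 1 alone). Hmgcs1, which makes the precursor of mevalonate, was at 8.99, 9.57 and 9.72 against 8.51, 6.57 and 6.25 (4.99-fold, adjusted p = 0.0318), Stard4, a sterol carrier, at 7.6, 7.75 and 7.92 against 7.12, 5.77 and 5.14 (3.36-fold, adjusted p = 0.0318), and Sc5d, a late enzyme, at 7.08, 8.28 and 8.73 against 7.11, 6.06 and 5.67 (3.36-fold, adjusted p = 0.0446). Tumor-free replicate 1 lay far above replicates 2 and 3 for all 3 genes, and for Sc5d it exceeded the lowest tumor-bearing array. Without tumor-free osteoblast replicate 1, 8 of the 15 rose. Hmgcs1 passed without tumor-free osteoblast replicate 1 and tumor-free endothelial replicates 1 and 3, each left out alone, and with no other array left out (adjusted p 0.0503 to 0.116). Stard4 passed without tumor-free osteoblast replicate 1 and tumor-free endothelial replicate 1, each left out alone, and with no other array left out (adjusted p 0.0503 to 0.11). Sc5d passed without tumor-bearing osteoblast replicate 1 and tumor-free osteoblast replicate 1, each left out alone, and with no other array left out (adjusted p 0.0628 to 0.148). Fold without tumor-free osteoblast replicate 1 was 8.1 for Hmgcs1. Stard4 also passed when each group had its own spread (adjusted p = 0.0485), the others named here did not. Against tumor-free replicate 1 alone, the fold was 1.56 for Stard4, 1.89 for Hmgcs1 and 1.89 for Sc5d, and Stard4, Hmgcs1 and Sc5d did not pass (adjusted p 0.107 to 0.277).

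Over 26 immediate early genes the median difference was 1.00, or 0.29 by tumor-free replicate 1 alone, and 4 rose (15.4%). Egr2, a zinc finger transcription factor, was at 10.72, 10.79 and 10.82 against 9.09, 9.25 and 9.58 (1.47 ± 0.22, adjusted p = 0.00789), and Fosb, an AP-1 subunit, at 10.61, 10.78 and 10.37 against 9.45, 9.43 and 8.94 (2.48-fold, adjusted p = 0.0415). Btg2, which restrains growth, was at 10.67, 11.04 and 11.06 against 10.15, 9.13 and 7.93 (3.62-fold, adjusted p = 0.0396), and Nr4a1 was the fourth. Without tumor-free osteoblast replicate 1, 20 of the 26 rose. Heat shock genes gave 0 of 14 past the threshold (median 0.35, or -0.06 by tumor-free replicate 1 alone, 5 at an unadjusted p under 0.05). Their means were 9.79, 9.59 and 9.65 in tumor-bearing and 9.75, 8.90 and 8.70 in tumor-free osteoblasts, and 9.73, 9.71 and 9.83 and 9.91, 9.13 and 9.09 in endothelial cells. In both cell types tumor-free replicate 1 lay with the tumor-bearing arrays and replicates 2 and 3 lay lower. How each replicate was collected is not stated, and its part in these values was not tested.

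Genes of oxidative stress and iron moved both ways, with 4 of 20 up and 2 down, against 4.01% up and 0.571% down of all genes. Slc39a14, a zinc and iron importer, was among the steadiest rises of any list, at 7.40, 7.71 and 7.40 against 6.00, 6.17 and 6.28 (1.36 ± 0.14, adjusted p = 0.00232). Srxn1, sulfiredoxin, a target of NRF2, was at 7.94, 8.39 and 7.74 against 7.17, 6.56 and 6.57 (1.25 ± 0.20, adjusted p = 0.00989). Txnrd1, thioredoxin reductase, rose 1.89-fold (adjusted p = 0.0377), and Sqstm1, the autophagy receptor p62, named after its values were seen, 1.97-fold (adjusted p = 0.0379). Ftl1 and Cat, catalase, fell, Cat at 8.26, 8.16 and 7.73 against 8.5, 9.24 and 8.96 (1.8-fold lower, adjusted p = 0.0392; named after its values were seen). In 3 further lists 1 gene rose, a share near the 4.01% of all genes tested. Of 20 genes of the unfolded protein response 1 rose, Herpud1 (2.98-fold, adjusted p = 0.044). Of 18 of the integrated stress response 1 rose, the amino acid transporter Slc1a4 (1.77-fold, adjusted p = 0.0253), and of 21 of ribosome biogenesis 1, Nop16 (2.19-fold, adjusted p = 0.0452). Slc1a4 entered the test only through the tumor-bearing osteoblast arrays and so had to differ. Of 16 glucocorticoid targets Sgk1, a kinase, and Errfi1, which restrains EGF receptors, rose 3.49-fold (adjusted p = 0.0236) and 3.18-fold (adjusted p = 0.034). Cell cycle genes (0 of 26, median -0.0031, or 0.17 by tumor-free replicate 1 alone, 1 at an unadjusted p under 0.05) and p53 targets (0 of 14, median -0.13, 2 likewise) had no member past the threshold. Egr2, Slc39a14 and Srxn1 passed with any 1 of the 12 arrays left out. Slc1a4 lost the call without tumor-bearing osteoblast replicates 2 and 3 and tumor-free osteoblast replicate 3, each left out alone (adjusted p 0.0519 to 0.0657). Sgk1 lost the call without tumor-bearing osteoblast replicates 1 and 2 and tumor-free osteoblast replicate 3, each left out alone (adjusted p 0.0542 to 0.0953). Sqstm1 passed without tumor-bearing osteoblast replicate 3, tumor-free osteoblast replicates 1 and 2 and tumor-free endothelial replicates 1 and 3, each left out alone, and with no other array left out (adjusted p 0.0503 to 0.139). Fosb and Herpud1 passed without tumor-free osteoblast replicates 1 and 2 and tumor-free endothelial replicates 1 and 2, each left out alone, and with no other array left out (adjusted p 0.057 to 0.143). Txnrd1 passed without tumor-bearing osteoblast replicate 3, tumor-free osteoblast replicates 1 and 2 and tumor-free endothelial replicate 1, each left out alone, and with no other array left out (adjusted p 0.0546 to 0.14). Nop16 passed without tumor-free osteoblast replicates 1 and 2 and tumor-bearing endothelial replicates 1 and 2, each left out alone, and with no other array left out (adjusted p 0.0634 to 0.145). Errfi1 passed without tumor-free osteoblast replicate 1 and tumor-free endothelial replicates 1, 2 and 3, each left out alone, and with no other array left out (adjusted p 0.0518 to 0.118). Btg2 passed without tumor-free osteoblast replicate 1 and tumor-free endothelial replicate 1, each left out alone, and with no other array left out (adjusted p 0.0535 to 0.131). Cat passed without tumor-free osteoblast replicate 1 and with no other array left out (adjusted p 0.0546 to 0.104). Slc39a14 and Srxn1 also passed when each group had its own spread (adjusted p 0.013 to 0.0387), the others named here did not. Set against tumor-free replicate 1 alone, the fold was 1.71 for Btg2 and 1.86 for Sgk1, and Fosb, Slc1a4, Herpud1, Btg2, Sgk1, Errfi1 and Cat did not pass (adjusted p 0.0542 to 0.219).

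Few genes of blood cells passed. For the counts that follow, 4.01% of all genes tested rose and 0.571% fell. Of 17 macrophage genes 1 fell, Wfdc17, and 0 rose, with a median of -1.26, or 1.29 by tumor-free replicate 1 alone. Without tumor-free osteoblast replicate 1, 11 of them fell. That replicate, with a macrophage mean of 5.23, lay below 2 of the 3 tumor-bearing arrays. Of 10 neutrophil genes 0 passed (median -0.93, or 0.51 by tumor-free replicate 1 alone, 1 at an unadjusted p under 0.05). Of 6 B lineage genes 2 fell. Cd79b, part of the B cell receptor, was at 5.48, 5.52 and 5.64 against 6.05, 6.89 and 6.61 (1.96-fold, adjusted p = 0.0297). Vpreb3, of the pre-B cell receptor, was at 5.01, 5.26 and 5.19 against 5.81, 5.71 and 5.67 (1.49-fold, adjusted p = 0.0481). Vpreb3 entered the test only through the tumor-free osteoblast arrays and so had to differ. The 16 endothelial genes gave 0 calls (6 at an unadjusted p under 0.05), and 0 of 7 erythroid and 0 of 6 megakaryocyte and mast cell genes passed (0 at an unadjusted p under 0.05 in both lists), with 3 and 4 differing upward and medians of -0.19 and 0.22. In reticular stroma 0 of 17 passed (median 0.63, or 1.29 by tumor-free replicate 1 alone, 1 at an unadjusted p under 0.05). Medians with 1 array left out ran from -2.78 to -0.46 for macrophage (lowest without tumor-free osteoblast replicate 1, highest without tumor-bearing osteoblast replicate 3), -1.54 to -0.41 for neutrophil (lowest without tumor-free osteoblast replicate 1, highest without tumor-bearing osteoblast replicate 3) and 0.07 to 1.02 for reticular stroma genes (lowest without tumor-bearing osteoblast replicate 1, highest without tumor-bearing osteoblast replicate 3). Cxcl12, the chemokine that holds blood stem cells in the marrow, was at 11.18, 10.53 and 10.13 against 8.86, 10.32 and 10.70 (0.65 ± 0.44, adjusted p = 0.381), Kitl, the ligand of KIT, at 9.38, 8.21 and 7.05 against 6.58, 7.33 and 7.95 (adjusted p = 0.282), and Vcam1, an adhesion molecule, at 10.85, 10.08 and 9.48 against 9.11, 11.16 and 11.05 (adjusted p = 0.72). For these the tumor-bearing values were highest in replicate 1 and lowest in replicate 3, and the groups overlapped. Other marker lists had 2 of 12 osteocyte (median -0.07, or -0.19 by tumor-free replicate 1 alone), 1 of 10 adipocyte (0.0013, or 0.42 by tumor-free replicate 1 alone), 1 of 10 osteoclast (-0.07, or 0.44 by tumor-free replicate 1 alone) and 1 of 10 skeletal muscle genes (0.46, or 0.18 by tumor-free replicate 1 alone) that rose and 0 that fell. These were Cd44 and Pdpn, podoplanin (1.86-fold, adjusted p = 0.0393 for Pdpn), Adipor2, an adiponectin receptor (3.17-fold, adjusted p = 0.0492), Nfatc1, the regulator of osteoclast formation (3.01-fold, adjusted p = 0.0375), and Tnnt3, a muscle troponin (2.28-fold, adjusted p = 0.0478). Cd79b lost the call without tumor-bearing osteoblast replicates 1, 2 and 3, tumor-free osteoblast replicate 3 and tumor-bearing endothelial replicate 1, each left out alone (adjusted p 0.0511 to 0.106). Pdpn passed without tumor-free osteoblast replicate 1, tumor-bearing endothelial replicates 2 and 3 and tumor-free endothelial replicate 1, each left out alone, and with no other array left out (adjusted p 0.054 to 0.137). Tnnt3 passed without tumor-bearing osteoblast replicates 1 and 2 and tumor-free osteoblast replicate 1, each left out alone, and with no other array left out (adjusted p 0.0657 to 0.111). Nfatc1 passed without tumor-free osteoblast replicate 1 and tumor-free endothelial replicate 1, each left out alone, and with no other array left out (adjusted p 0.0521 to 0.134). Adipor2 passed without tumor-free osteoblast replicate 2 and with no other array left out (adjusted p 0.0654 to 0.148). Vpreb3 passed with none of the 12 arrays left out (adjusted p 0.0546 to 0.133). Fold without tumor-free osteoblast replicate 2 was 4.79 for Adipor2. None of Cd79b, Vpreb3, Tnnt3, Nfatc1, Adipor2 and Pdpn passed when each group had its own spread. With tumor-free replicate 1 as the only tumor-free array, the fold was 1.52 for Nfatc1, and Pdpn, Tnnt3, Nfatc1, Cd79b and Vpreb3 did not pass (adjusted p 0.0739 to 0.227).

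The endothelial arrays allow a test of whether a change differed between the cell types. In endothelial cells 3 of 12430 genes passed (0.0241%), with 861 at an unadjusted p under 0.05 (6.93%). The genes that rose in osteoblasts had a median endothelial difference of 0.05. The difference between the osteoblast and the endothelial change passed for 26 genes (0.209%), 22 with the higher change in osteoblasts (0.177%) and 4 with the lower, and 23 of the 26 were among the 570. For F3, at 4.84, 4.73 and 4.51 in tumor-bearing and 4.67, 4.40 and 4.40 in tumor-free endothelial cells, the difference between the changes was 3.95 ± 1.04 (SE) and short of the threshold (adjusted p = 0.135), as were those of Cytl1 (adjusted p = 0.277) and Chil1 (adjusted p = 0.064). Fmo2 differed by 2.53 in endothelial cells too, which did not pass there (adjusted p = 0.249).

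Several of the 26 genes were among the smallest p-values of the osteoblast comparison. Slc41a1, a magnesium transporter, had the smallest, at 8.93, 8.79 and 8.15 in tumor-bearing and 5.96, 6.31 and 6.25 in tumor-free osteoblasts (2.45 ± 0.22, adjusted p = 0.00139), and at 7.37, 7.62 and 7.67 and 7.54, 7.22 and 7.64 in endothelial cells. The osteoblast change exceeded the endothelial one by 2.37 ± 0.31 (adjusted p = 0.0279). Abhd2, a hydrolase, was at 8.74, 9.51 and 8.97 against 5.83, 6.92 and 6.19 in osteoblasts and at 7.98, 8.04 and 7.71 against 7.92, 7.49 and 7.80 in endothelial cells, a difference between changes of 2.59 ± 0.40 (adjusted p = 0.0329). For both genes tumor-free replicate 1 was the lowest osteoblast array. Mtmr12, of the myotubularin family, was at 7.47, 7.44 and 7.88 against 5.47, 5.91 and 5.6 (1.93 ± 0.20, adjusted p = 0.00196), and Sobp at 8.16, 8.18 and 7.89 against 6.35, 5.58 and 5.96 (2.12 ± 0.20, adjusted p = 0.00196). Smim3, a small membrane protein, was at 8.65, 8.45 and 8.11 against 6.62, 6.59 and 6.91 (1.70 ± 0.17, adjusted p = 0.00196). Anxa2, an annexin that binds plasminogen activators and is carried by osteoblasts, was at 9.36, 9.75 and 9.75 against 8.40, 8.22 and 8.29 (1.31 ± 0.15, adjusted p = 0.00355).

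Mfn1, a mitofusin, was at 7.39, 7.17 and 7.31 against 5.86, 5.36 and 5.97 (1.57 ± 0.17, adjusted p = 0.0029), and Rhot1, which moves mitochondria along microtubules, at 6.75, 6.99 and 6.85 against 5.26, 5.94 and 5.35 (1.35 ± 0.19, adjusted p = 0.00604). Park7, a redox-sensitive chaperone, was at 9.15, 9.36 and 9.31 against 8.11, 7.95 and 7.44 (1.44 ± 0.19, adjusted p = 0.00542). Ube3c, a ubiquitin ligase, was at 7.25, 7.23 and 7.33 against 5.64, 6.04 and 6.15 (1.33 ± 0.17, adjusted p = 0.00528), and Adgra3, an adhesion receptor, at 7.58, 8.06 and 7.58 against 6.16, 5.64 and 6.05 (1.79 ± 0.20, adjusted p = 0.0029). In all 5 the tumor-bearing and the tumor-free osteoblast arrays did not overlap. The 26 genes form no list of their own, and no theme was tested among them. In osteoblasts, Slc41a1, Abhd2, Mtmr12, Sobp, Smim3, Adgra3, Mfn1, Rhot1, Park7, Anxa2 and Ube3c passed with any 1 of the 12 arrays left out. In that osteoblast comparison they also passed when each group had its own spread (adjusted p 0.00886 to 0.0308). For the difference between cell types, none of these genes passed with each array left out in turn. The count of 26 itself fell to 0 without tumor-bearing osteoblast replicate 2, any 1 tumor-bearing endothelial array, or tumor-free endothelial replicate 2 or 3. It was 13 without tumor-bearing osteoblast replicate 3, and 223 and 545 without tumor-free osteoblast replicates 2 and 1.

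**Figure D5:**
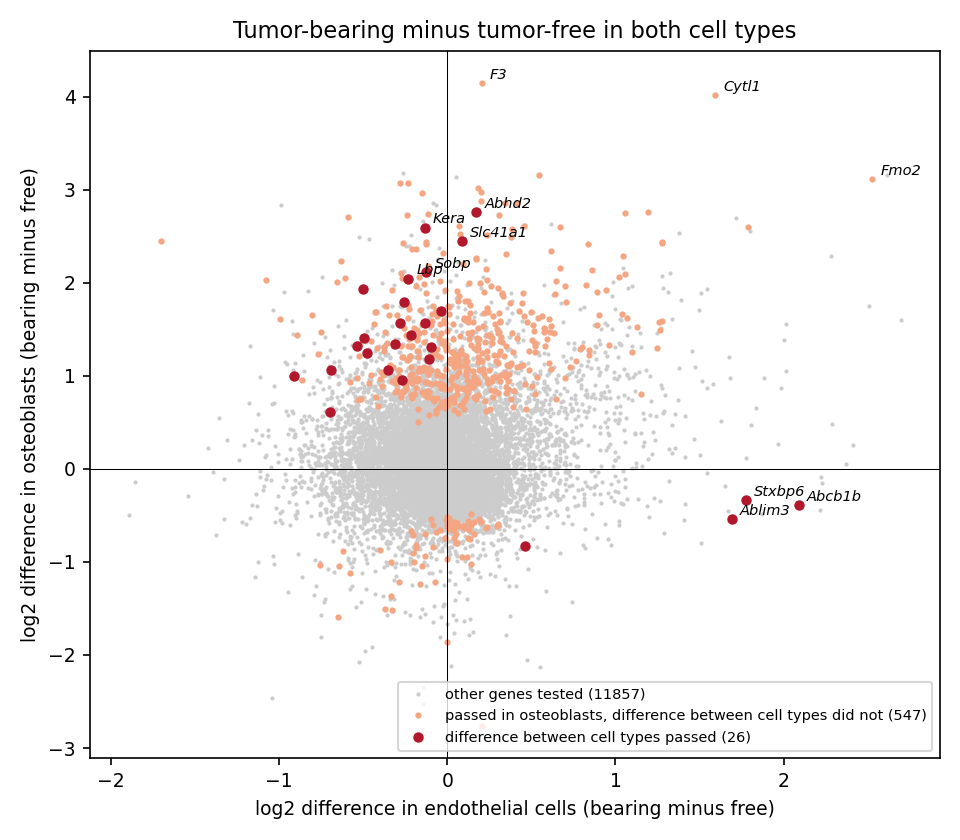
Log2 difference between tumor-bearing and tumor-free mice in osteoblasts (vertical axis) against that in endothelial cells (horizontal axis), 1 point per gene tested; orange points passed in osteoblasts and red points passed the test of the difference between cell types. The 26 red points include Slc41a1, at 2.45 in osteoblasts and 0.09 in endothelial cells; Abcb1b, Ablim3 and Stxbp6 lie at the right, with differences of 2.09, 1.69 and 1.78 in endothelial cells.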

How the data were processed

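The deposited values are log2 expression for 34760 probe sets and 12 arrays, from 1.55 to 12.9. Per the submitters' processing notes the authors made them with affy, whose version and normalization steps the sources used here do not give. Per the labels' protocols, RNA was amplified as cDNA (SPIA) before hybridization.

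Probe sets took their gene names from the array's annotation table. For 954 of 19937 genes with several probe sets the one with the highest mean over 12 arrays was used. Dim genes were left out: a gene had to exceed the array's overall median on at least 3 arrays, which kept 12430 genes (62.3%). Limma 3.58.1 in R 4.3.3 fitted 1 mean per group over 12 arrays, with no replicate block (8 residual degrees of freedom). Tests are two-sided with Benjamini-Hochberg adjustment and a threshold of 0.05; a fold is 2 raised to the log2 difference. The method was tested on simulated data. Those had the same spread in every group, unlike the arrays here, so they cannot show how it behaves with unequal spread. With 3 arrays against 3 the smallest exact permutation p is 0.1.

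The genes, the 51 gene lists and the alternatives were chosen with earlier results of these data known. The text names the 12 largest rises and 12 largest falls among genes past the threshold whose groups did not overlap, leaving out clone and model names. It also names up to 4 members past the threshold with the smallest p from each list, the genes past the threshold for the difference between cell types, and 24 fixed genes, some of which are not analysed here. Others are said to have been named after their values were seen. A list's count and median describe it and are no test. Alternatives were the replicate block, quantile normalization, centring, other filters on dim genes (none, or the 70th percentile), probe set means, a robust intensity trend, array weights, a spread per group, a 2-fold minimum, the 6 osteoblast arrays alone, tumor-free osteoblast replicate 1 alone, and leaving out each array. No 2 arrays held identical values.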

Additional observations from a re-analysis of the deposited data

Results flagged for a closer look

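A total of 26 genes changed differently in the osteoblast and the endothelial comparison, by a test of the difference itself (limma, adjusted p 0.0279 to 0.0413). For 22 the osteoblast change was the higher. Already described above are Slc41a1 (2.37), Abhd2 (2.59), Mtmr12 (2.44), Sobp (2.24), Smim3 (1.74), Kera (2.73), Lbp (2.28), Adgra3 (2.05), Mfn1 (1.85), Rhot1 (1.66), Park7 (1.65), Anxa2 (1.41) and Ube3c (1.86), given as the osteoblast minus the endothelial log2 difference. Further genes were Ptpn11, the phosphatase SHP2 (1.42), Acvr1b, an activin receptor (1.91), Hsd17b7, which acts in sterol synthesis (1.91), and Gaa, the lysosomal enzyme that degrades glycogen (1.29). Nbr1, an autophagy receptor (1.31), Nrep (1.72), Prdm4 (1.69), Zbtb43 (1.76) and Ttc17 (1.22) complete the set. Another probe set of Ttc17 differed by -0.62 in osteoblasts, against 0.96 for the one used.

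For 4 genes the osteoblast change was the lower. Abcb1b, a drug efflux pump, differed by 2.09 in endothelial cells (adjusted p = 0.0458) and -0.39 in osteoblasts (adjusted p = 0.381), a difference of -2.48. Its endothelial values were 6.00, 6.31 and 6.13 in tumor-bearing and 4.36, 4.0 and 3.80 in tumor-free replicates 1, 2 and 3. The tumor-free values lay below the medians of their arrays (5.21 to 5.26), so the endothelial difference compares with dim values. Stxbp6 differed by 1.78 and -0.34 in endothelial cells and osteoblasts (difference -2.11), and Ablim3, which binds actin, by 1.69 and -0.54 (difference -2.23). Acr fell in osteoblasts (-0.83, adjusted p = 0.0134), with a difference of -1.29.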

How the results depend on the processing

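The 570 osteoblast calls became 349 with the replicate block (326 higher, 23 lower; 338 shared with the 570), 955 with no filter on dim genes (551 higher, 404 lower), 130 with a spread per group, 0 in limma on the 6 osteoblast arrays alone (1820 at an unadjusted p under 0.05), 1344 against tumor-free replicate 1 alone and 374 with at least 2-fold. They ranged from 111 to 1573 with 1 array left out. Quantile normalization gave 552, centring 682, the 70th percentile filter 518, probe set means 563, an intensity trend 552 and array weights 659. Of these 422, 555, 483, 545, 509 and 422 were shared with the 570, in the same order. The 26 genes that differed between cell types became 0 in limma with the replicate block, 14 with quantile normalization and 41 with the mean over probe sets, and ranged from 0 to 545 with 1 array left out. Of 125 named genes past the threshold, 125 kept their sign under every alternative run for them, 37 passed with any array left out, 93 with the replicate block and 47 with a spread per group. Groups did not overlap for 568 of the 570 genes that passed. Leaving out an array could not turn the sign of these, so their kept signs are no check there. The sign turned for 8 genes short of the threshold. With 1 array left out, log2 differences ranged from -1.23 to 0.54 for Ptprc, -0.51 to 0.065 for Pecam1, -0.12 to 0.054 for Ibsp, -1.17 to 0.30 for Col1a1, -0.87 to 0.54 for Col1a2, -1.03 to 0.049 for Dmp1, -0.48 to 0.42 for Csf1 and -0.97 to 0.053 for Vcam1. Against tumor-free replicate 1 alone they were 1.28 for Ptprc, 0.20 for Ibsp, 1.75 for Col1a1, 1.73 for Col1a2, 0.77 for Csf1 and 1.03 for Vcam1, and with quantile normalization 0.013 for Ibsp; the cause was not tested. Deviations of tumor-bearing and tumor-free osteoblast arrays with the same replicate number correlated at -0.26, -0.003 and -0.14. Between these 2 groups there was no sign of pairing by number. Same-numbered osteoblast and endothelial arrays gave 0.002, 0.071 and -0.046 in tumor-bearing and 0.095, 0.074 and -0.0028 in tumor-free mice. The best other number gave 0.089, -0.0034 and 0.049 in tumor-bearing and -0.012, 0.019 and 0.052 in tumor-free mice. For immediate early and heat shock genes, tumor-free replicate 1 was the highest tumor-free array in both cell types. The endothelial numbers gave 0.036, -0.028 and -0.042. Whether osteoblast and endothelial arrays with the same number share mice is not stated, and these correlations cannot exclude it. The replicate block is therefore given as an alternative only. Signal over background was not analysed here.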

Other observations

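Other genes were followed after their values were seen. Gda, which deaminates guanine, fell in osteoblasts, with 4.70, 4.73 and 4.63 in tumor-bearing and 6.11, 5.93 and 5.10 in tumor-free mice (2.04-fold lower, adjusted p = 0.0344). It passed without tumor-free osteoblast replicates 1 and 3, tumor-bearing endothelial replicate 3 and tumor-free endothelial replicate 1, each left out alone, and with no other array left out. Nt5e, the enzyme CD73 that turns AMP into adenosine, stood at 9.42, 9.80 and 9.71 against 9.0, 6.51 and 5.33 (2.69 ± 0.75, adjusted p = 0.0663), and the metallothionein Mt2 at 11.05, 11.03 and 11.10 against 10.86, 8.79 and 6.67 (2.29 ± 0.89, adjusted p = 0.152). For both, tumor-free replicate 1 lay just under the lowest tumor-bearing array while replicates 2 and 3 lay far below, and neither passed.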
